A study of Rattus norvegicus with 18 samples.

Results

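The 38 genes described here code for the proteins that bring fatty acids into muscle, load them onto carnitine, shorten them by β-oxidation and release them from stored fat. They were followed in the soleus of rats with and without chronic kidney disease, in a limb with a ligated artery and in the limb on the other side. A gene counted as measured where an Affymetrix probe set listed it as its only gene, and where several did, the brightest of them on average stood for the gene. By this rule 37 of the 38 genes were found, among 14217 genes in all, and Acaa1a was not matched. The 37 comprised 6 genes of uptake and activation, 7 of the carnitine shuttle, 17 of mitochondrial β-oxidation, 1 of peroxisomal β-oxidation, 2 of lipolysis and 4 of fuel gating, uncoupling and thioester cleavage.

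Muscle takes up fatty acids that lipoprotein lipase frees at the capillary wall, turns them into acyl-CoA, and carries the acyl groups into mitochondria as carnitine esters. There they are cut in repeated cycles of dehydrogenation, hydration, renewed dehydrogenation and thiolysis, and the electrons pass to the respiratory chain, so the pathway needs oxygen. The soleus is a slow-twitch, oxidative muscle that depends on it, and receptors of the PPAR family with their coactivator Ppargc1a are known to switch on many of the genes.

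The soleus muscles came from 9 male rats. In 5 of them most of the renal mass had been removed by 5/6 nephrectomy (SNX), and the other 4 were sham operated. Every rat had its right femoral artery ligated and resected 8 weeks later, and both soleus muscles were taken 24 hours after that, 1 array per muscle. The groups were sham left and sham right (n = 4 rats each) and SNX left and SNX right (n = 5 rats each). The left muscle is that of the other limb of a ligated rat, and no rat without ligation is among the arrays. Strain and age are not given in the sources used here. A label field calls the arrays of sham rats nonischemic and those of SNX rats ischemic whichever the limb, against the design text, so operation and side name the groups here.

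Values are on the log2 scale, as deposited, with array medians between 3.22 and 3.37. Arrays give no read depth, and their number limits the precision. The arrays of right muscle from sham rat 17 and from SNX rat 49 stood apart, with the lowest mean correlations to the other arrays (0.978 and 0.980) and macrophage marker means of 9.01 and 8.33, the highest of their groups. Averaged right minus left differences that moved by over 1.5 times without them are given both ways for the members shown on every array except the dim Ucp2. For Acsl1 that difference went from -0.02 to 0.12. Markers of slow fibres, the main fibre type of the soleus, were present, with a mean of 14.9 for the slow myosin gene Myh7. The mean of 9 slow fibre markers nevertheless ran from 10.8 to 14.8 between arrays, against 14.5 to 14.9 for 9 fast fibre markers. The fast fibre means were thus the steadier. In sham left and SNX right muscle every slow fibre mean lay below every fast fibre mean, and in the other groups the ranges overlapped. These means therefore do not show that slow fibres prevailed in the samples. In whole muscle, fewer cells of a type and less RNA per cell cannot be told apart.

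All members except Ucp2 and Angptl4 lay above the array median on each of the 18 arrays. Ucp2, which codes for an inner membrane carrier, lay at or below that median on 18 of 18 arrays, so no direction was read from it. Angptl4, a secreted inhibitor of lipoprotein lipase, lay at or below it on 5 of 18.

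**Figure D1:**
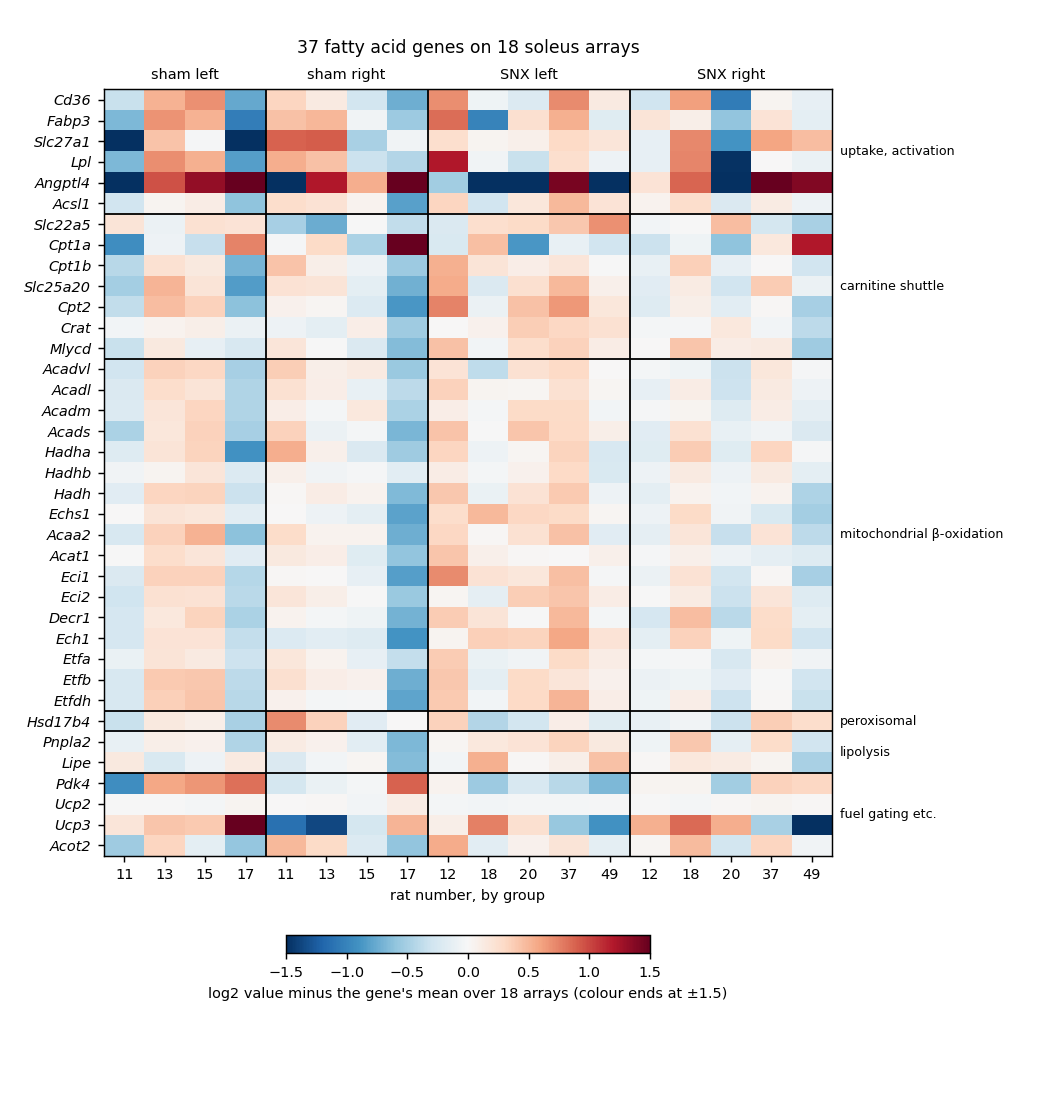
Log2 value of each of the 37 fatty acid genes (rows, ordered by step) minus its mean over 18 arrays, by rat and group (columns); colour ends at 1.5 in both directions. The β-oxidation rows change colour together from array to array, with the lowest values on both arrays of sham rat 17.

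Most members were lower in the right than in the left muscle, by small amounts, and none passed the test. Averaged over both kinds of rat, 28 of 37 differences (right minus left) lay below 0, with a median of -0.11. For comparison, 53.9% of the 8529 genes with a mean of at least 4 lay below 0, as did 59.8% of all 14217 genes, whose median was -0.01. The limma test adjusted over all probe sets called 0 of 37 members, beside 2.55% of probe sets. At an unadjusted p under 0.05 there were 5 members (Slc22a5, Echs1, Crat, Ech1 and Eci1), or 13.5%, beside 18.9% of probe sets. When the fit took the rat as a block, with a shared correlation of 0.297 for all probe sets, Slc22a5 and Echs1 passed. These 2 members are 5.41% of the 37, beside 9.05% of probe sets called with the block. At 1 probe set per gene, the block called 12.3% of genes, and 5.23% as lower on the right, the direction of both members. Counts this small do not tell the members apart from the background. With the rat as a fixed term, which compares the limbs within each rat, Echs1 passed and Slc22a5 did not.

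Within SNX rats alone, 32 of 37 members and 17 of 17 mitochondrial β-oxidation genes were lower on the right, with a median of -0.20 over the members, beside 55.4% of genes with a mean of at least 4. Within sham rats alone, 23 of 37 members and 14 of 17 β-oxidation genes were lower, with a median of -0.03, beside 52% of such genes. The limma test called 0 of 37 members in SNX rats, beside 0.0451% of probe sets, and 0 of 37 in sham rats, beside 0.148%. The blocked fit called 0 of 37 in each as well, beside 0.319% of probe sets in SNX rats and 1.8% in sham rats. At an unadjusted p under 0.05 there were 3 members in SNX rats (8.11%, beside 7.92% of probe sets) and 2 in sham rats (5.41%, beside 12.3%). For none of the 37 were left and right values of a group without overlap, beside 1.95% of probe sets in SNX rats and 8.64% in sham rats. Without the 2 arrays that stood apart, the count below 0 was 29 in SNX rats, 12 in sham rats and 22 for the average. The sham count also depended on single rats. It was 33 without rat 11 and 15 without rat 15, where the median became 0.03, and without rat 13 it was 18 with a median of 0.0064.

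**Figure D2:**
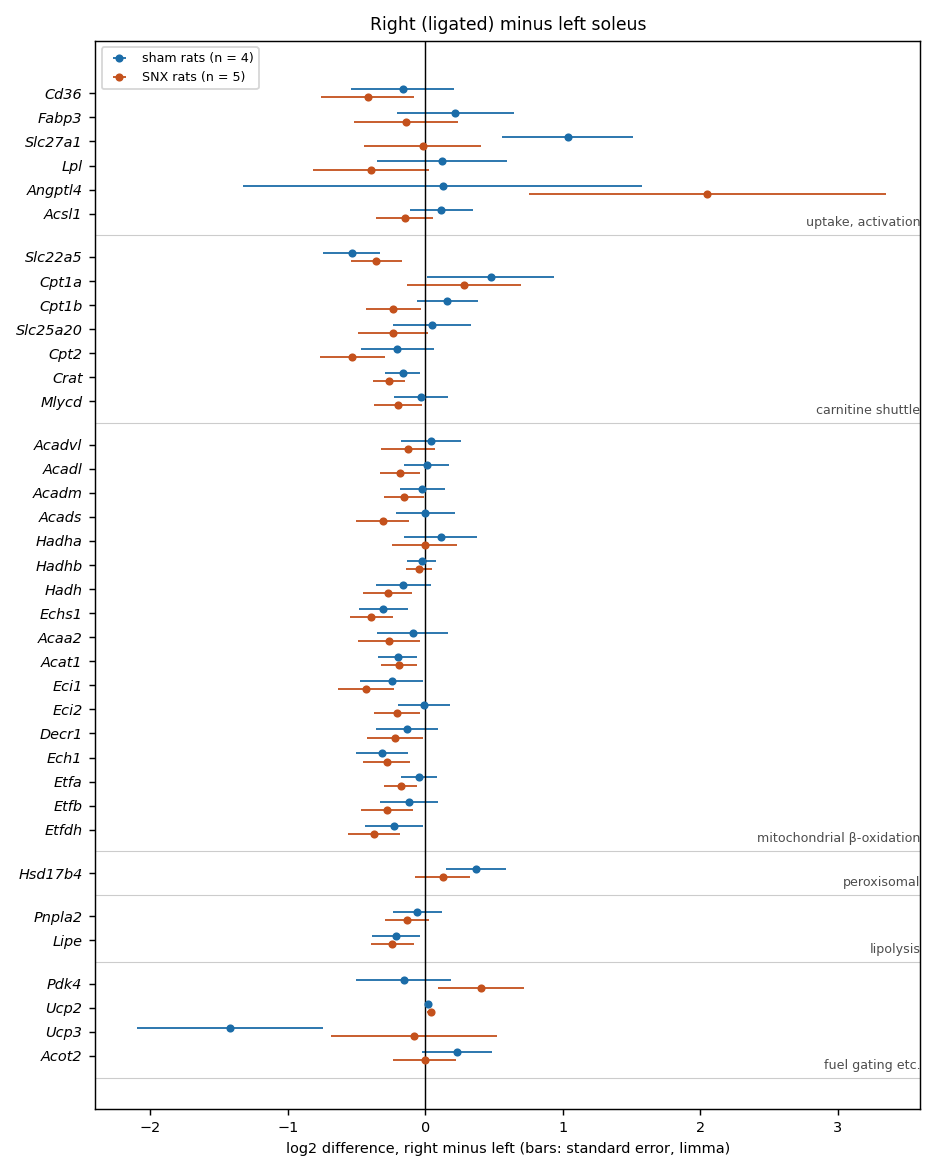
Log2 difference, right (ligated) minus left soleus, for each fatty acid gene in sham rats (n = 4) and SNX rats (n = 5), with limma standard errors. In SNX rats the 17 mitochondrial β-oxidation genes lie below 0, and in both kinds of rat none of the differences passed the adjusted test.

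Among the genes of uptake and activation, right and left differed in opposite directions from rat to rat. Array values below are in the order of rats 11, 13, 15 and 17 for sham and of rats 12, 18, 20, 37 and 49 for SNX. Cd36, the fatty acid translocase of the plasma membrane, read 10.71, 11.56, 11.73 and 10.27 in sham left and 11.36, 11.17, 10.77 and 10.31 in sham right muscle. In SNX rats Cd36 read 11.74, 10.98, 10.84, 11.75 and 11.18 on the left and 10.75, 11.65, 9.997, 11.08 and 10.92 on the right. Right muscle was lower in 6 of 9 rats and the groups overlapped widely, with a difference of -0.29 (SE 0.253, limma adjusted p = 0.521).

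Lpl, the lipase that frees fatty acids from circulating triglyceride, read 12.43, 13.81, 13.64 and 12.28 in sham left and 13.65, 13.55, 12.78 and 12.67 in sham right muscle. On the left of SNX rats Lpl read 14.31, 13.05, 12.77, 13.36 and 13.04, and on the right 12.99, 13.84, 11.62, 13.12 and 13.01. The right was higher than the left in sham rats 11 and 17 and in SNX rat 18, and lower in the other rats. The mean difference of Lpl was -0.14 (SE 0.317, adjusted p = 0.816), and -0.06 without the 2 arrays that stood apart.

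Angptl4 spanned the widest range of the members, from 2.44 to 8.40. It read 2.47, 6.35, 6.71 and 8.15 in sham left and 3.26, 6.59, 5.93 and 8.40 in sham right muscle. In SNX muscle it read 4.86, 2.44, 2.46, 6.81 and 2.86 on the left and 5.59, 6.26, 2.71, 8.35 and 6.78 on the right. Angptl4 was higher on the right in 8 of 9 rats, by 3.82 and 3.91 in SNX rats 18 and 49, and lower in sham rat 15. The left limb values of those 2 rats lie near the bottom of the range, where array values have no reliable order. The difference was 2.05 in SNX rats (SE 1.30, limma adjusted p = 0.770) and 0.13 in sham rats (SE 1.45, adjusted p = 0.968). These values come from the fit that does not pair the limbs of a rat. In SNX rats Angptl4 passed in 0 of 19 alternative fits (lowest limma adjusted p = 0.266). The block and the rat as a fixed term were among those fits. Without the 2 arrays that stood apart, the sham difference of Angptl4 was -0.66 and the averaged one went from 1.09 to 0.59.

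Slc27a1, a fatty acid transport protein, read 4.93, 6.93, 6.49 and 4.81 in sham left and 7.40, 7.42, 6.03 and 6.46 in sham right muscle. In SNX rats it lay between 6.55 and 6.81 on the left and between 5.61 and 7.23 on the right. The sham difference of 1.04 (SE 0.476, adjusted p = 0.396) came from low left values in rats 11 and 17. It was 0.56 without rat 11, and in SNX rats it was -0.02 (SE 0.426).

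Acsl1, the main acyl-CoA synthetase of oxidative muscle, read 12.24, 12.57, 12.65 and 11.92 in sham left and 12.80, 12.75, 12.58 and 11.71 in sham right muscle. In SNX rats Acsl1 read 12.85, 12.24, 12.70, 13.01 and 12.73 on the left and 12.58, 12.79, 12.32, 12.65 and 12.45 on the right. Sham rat 17 had the lowest value in both limbs, and left and right overlapped in both kinds of rat. Fabp3, the cytosolic fatty acid binding protein of muscle, ran from 12.5 to 14.4 over the arrays, and its difference was 0.04 (adjusted p = 0.942).

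In the carnitine shuttle, 6 of 7 genes lay below 0 for the averaged difference, with a median of -0.11. Slc22a5, the carnitine transporter of the plasma membrane, had the lowest p of the members. It read 8.36, 8.08, 8.39 and 8.36 in sham left and 7.66, 7.42, 8.15 and 7.80 in sham right muscle. SNX rats had values of 7.95, 8.41, 8.45, 8.57 and 8.85 on the left and 8.12, 8.15, 8.62, 7.89 and 7.67 on the right. All 4 sham rats and SNX rats 18, 37 and 49 were lower on the right, and SNX rats 12 and 20 were higher by 0.17 each. Left and right overlapped in sham rats only through the left value of rat 13 and the right value of rat 15. The averaged difference was -0.45, or 1.36-fold lower on the right (SE 0.138, 95% interval -0.74 to -0.15, limma adjusted p = 0.0927, and 0.0367 with the rat as a block). With the block, the adjusted p of Slc22a5 was 0.0869 without the 2 right limb arrays that stood apart. It was above 0.05 too without rat 11, 13, 17, 18, 37 or 49, with a highest value of 0.116. With the rat as a fixed term in place of the block, Slc22a5 did not pass.

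Cpt1b, the muscle form of the carnitine palmitoyltransferase that controls entry into mitochondria, showed little difference between limbs. It read 11.02, 11.68, 11.59 and 10.75 in sham left and 11.87, 11.54, 11.37 and 10.90 in sham right muscle. In SNX rats it read 11.97, 11.64, 11.55, 11.63 and 11.44 on the left and 11.34, 11.80, 11.33, 11.45 and 11.16 on the right. The averaged difference of Cpt1b was -0.04, with a 95% interval of -0.35 to 0.28, and 0.08 without the 2 arrays that stood apart.

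Cpt1a, the form known from liver, read 4.72, 5.57, 5.30 and 6.39 in sham left and 5.63, 5.93, 5.16 and 7.15 in sham right muscle. Its SNX values were 5.41, 6.10, 4.77, 5.53 and 5.35 on the left and 5.32, 5.57, 5.04, 5.80 and 6.84 on the right. The highest right values, 7.15 and 6.84, came from the arrays of sham rat 17 and SNX rat 49, which also had the highest macrophage marker means. The part of those cells in the Cpt1a values was not tested, and the averaged difference was 0.38 (SE 0.310, adjusted p = 0.5002). Without the 2 arrays it was 0.04 (adjusted p = 0.946).

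Mlycd removes malonyl-CoA, the inhibitor of carnitine palmitoyltransferase. It read 9.14, 9.62, 9.36 and 9.24 in sham left and 9.66, 9.48, 9.27 and 8.83 in sham right muscle. In SNX rats Mlycd read 9.92, 9.44, 9.75, 9.83 and 9.59 on the left and 9.49, 9.90, 9.60, 9.62 and 8.95 on the right. Right muscle was lower in 7 of 9 rats, with a difference of -0.11 (adjusted p = 0.624), which became 0.04 without the 2 arrays that stood apart. Of the other shuttle genes, the inner membrane acyltransferase Cpt2 differed by -0.37 (adjusted p = 0.278), the carnitine acetyltransferase Crat by -0.21 (adjusted p = 0.201, lower in 8 of 9 rats) and the carrier Slc25a20 by -0.09 (adjusted p = 0.783).

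Of the 17 mitochondrial β-oxidation genes, 16 lay below 0 for the averaged difference, between -0.35 and 0.05, with a median of -0.18. Echs1, the enoyl-CoA hydratase of short chains, had the lowest value and the lowest p. It read 11.73, 11.91, 11.89 and 11.56 in sham left and 11.73, 11.65, 11.57 and 10.92 in sham right muscle. SNX rats had values of 11.99, 12.20, 12.03, 12.01 and 11.75 on the left and 11.65, 12.00, 11.66, 11.49 and 11.21 on the right. Echs1 was lower in right muscle in 8 of 9 rats and equal in sham rat 11. The overlap of left and right in SNX rats came from the right value of rat 18 alone, which lay above the left values of rats 12 and 49. The averaged difference was -0.35, or 1.27-fold lower (SE 0.118, 95% interval -0.60 to -0.10, limma adjusted p = 0.121, and 0.0307 with the rat as a block). With the block, the difference of Echs1 was -0.23 without the 2 arrays that stood apart (adjusted p = 0.0598). It lay between 0.0418 and 0.0830 over the fits that left out 1 rat, and above 0.05 without rat 12, 13, 15, 17 or 37.

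Ech1, an isomerase for unsaturated chains, read 11.77, 12.22, 12.22 and 11.66 in sham left and 11.81, 11.86, 11.82 and 11.12 in sham right muscle. In SNX rats it read 12.06, 12.37, 12.36, 12.60 and 12.22 on the left and 11.87, 12.36, 11.95, 12.30 and 11.73 on the right. Right muscle was lower in 8 of 9 rats, all but sham rat 11, with a difference of -0.30 (SE 0.128, adjusted p = 0.223, and 0.0753 with the block), and -0.17 without the 2 arrays that stood apart. The lowest value by far in sham right muscle was that of rat 17.

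All other genes of this step but Hadha also lay below 0. For the isomerase Eci1 the averaged difference was -0.34 (adjusted p = 0.250), for Etfdh, which hands electrons to ubiquinone, -0.30 (adjusted p = 0.270), and for the dehydrogenase Hadh -0.22 (adjusted p = 0.379). The acyl-CoA dehydrogenases, which open each cycle, differed by -0.04 (Acadvl, very long chains), -0.09 (Acadl), -0.09 (Acadm) and -0.15 (Acads, short chains). The electron carrier subunits Etfa and Etfb differed by -0.11 and -0.20, the thiolases Acaa2 and Acat1 by -0.18 and -0.20, and Eci2 and Decr1 by -0.11 and -0.18. Hadha and Hadhb code for the subunits of the trifunctional protein, and differed by 0.05 and -0.04. Without the block, the lowest adjusted p in this step was the 0.121 of Echs1.

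**Figure D3:**
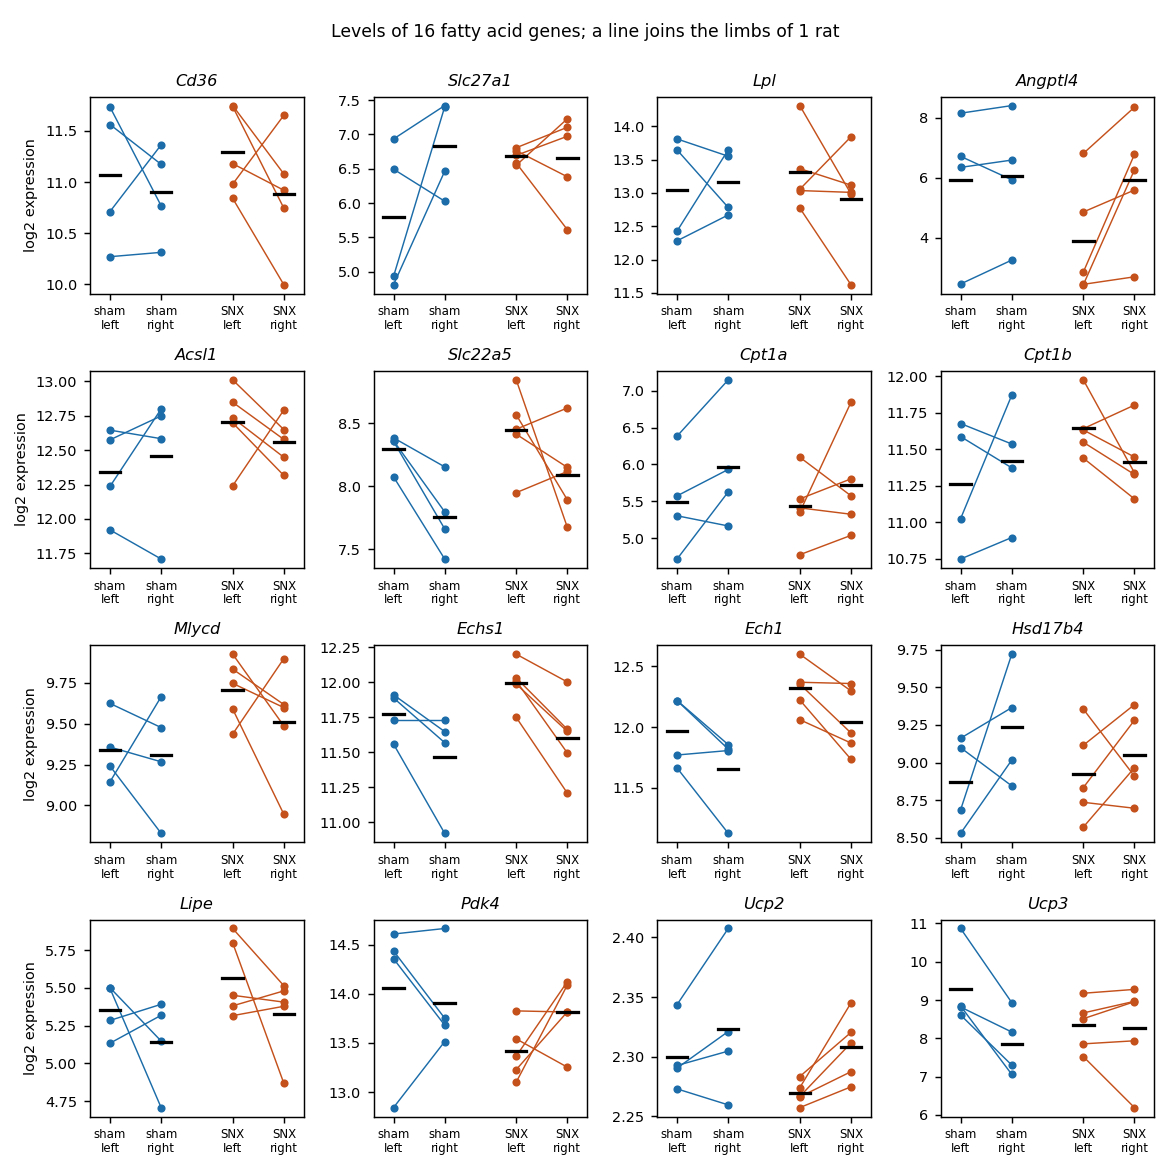
Log2 expression of 16 fatty acid genes on every array, sham rats in blue and SNX rats in orange; a line joins the limbs of 1 rat and black bars are group means. Slc22a5 lies lower on the right in all 4 sham rats and Echs1 in 8 of 9 rats, whereas lines of Cd36, Lpl and Cpt1b run both ways.

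The sequence before the start of some of these genes is shown because the nuclear receptors that regulate fatty acid oxidation bind a direct repeat, a pair of AGGTCA copies with any 1 base between them, and because hypoxia-inducible factors bind sites with the core ACGTG or GCGTG. RefSeq promoter windows on GRCr8 (250 bases before to 50 after the start) were matched for 31 of the 38 genes, and both strands were searched. The direct repeat, with at most 2 mismatches outside the spacer, was found in 6 of the 31 (Slc25a20, Crat, Acadvl, Echs1, Etfa and Ucp3), or 19.4%, beside 3.77% of 33469 promoters of the same length. The upstream 250 bases are printed 5′ to 3′ on the strand of the gene, with the repeat in capitals. Acadvl is shown for the closest match (1 mismatch), Echs1 and Slc22a5 because they passed with the block, and Ucp3 for its large difference in sham rats.
Acadvl, chr10:55236706-55236955, minus strand: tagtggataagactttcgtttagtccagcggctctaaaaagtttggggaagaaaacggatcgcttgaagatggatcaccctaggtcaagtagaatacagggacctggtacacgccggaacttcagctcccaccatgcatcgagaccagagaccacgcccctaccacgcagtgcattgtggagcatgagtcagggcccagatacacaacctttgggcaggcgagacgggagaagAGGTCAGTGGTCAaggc
Echs1, chr1:204333507-204333756, minus strand: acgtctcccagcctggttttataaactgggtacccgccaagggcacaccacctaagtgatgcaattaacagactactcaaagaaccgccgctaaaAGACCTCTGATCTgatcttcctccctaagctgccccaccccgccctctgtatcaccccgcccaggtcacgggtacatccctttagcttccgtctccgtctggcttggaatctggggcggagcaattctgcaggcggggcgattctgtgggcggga
Ucp3, chr1:164227660-164227909, plus strand: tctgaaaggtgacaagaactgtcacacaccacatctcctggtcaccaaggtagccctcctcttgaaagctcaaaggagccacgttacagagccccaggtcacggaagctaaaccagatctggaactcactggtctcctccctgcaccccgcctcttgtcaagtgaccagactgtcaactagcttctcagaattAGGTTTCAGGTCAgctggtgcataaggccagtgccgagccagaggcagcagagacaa
Slc22a5, chr10:38536073-38536322, minus strand: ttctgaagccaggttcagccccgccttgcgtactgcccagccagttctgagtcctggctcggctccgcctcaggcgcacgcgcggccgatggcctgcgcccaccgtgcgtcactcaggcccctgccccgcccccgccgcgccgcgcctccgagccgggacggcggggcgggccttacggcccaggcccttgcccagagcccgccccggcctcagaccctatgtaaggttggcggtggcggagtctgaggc

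In Acadvl the repeat lies at positions -17 to -5 from the start, in Ucp3 at -57 to -45, and in Echs1 at -155 to -143 on the opposite strand. The Slc22a5 window holds no such repeat within the limit on mismatches. The averaged right minus left differences of the 6 genes with the repeat were -0.09 (Slc25a20), -0.21 (Crat), -0.04 (Acadvl), -0.35 (Echs1), -0.11 (Etfa) and -0.75 (Ucp3), and only Echs1 passed, with the block. The core ACGTG was found in 5 of the 31 (16.1%, beside 19.3% of all promoters) and GCGTG in 18 of the 31 (58.1%, beside 29.7%). The windows of the 31 were also richer in G and C, with a median of 60.0% beside 51.7%. A match of letters is a description and shows no binding. The start regions of Hadha (chr6:31907551-31907800, plus strand) and Hadhb (chr6:31907501-31907750, minus strand) overlap on opposite strands.

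Hsd17b4, the bifunctional enzyme of peroxisomal β-oxidation, lay above 0. It read 8.69, 9.16, 9.10 and 8.53 in sham left and 9.72, 9.37, 8.84 and 9.02 in sham right muscle. In SNX rats Hsd17b4 read 9.36, 8.57, 8.73, 9.12 and 8.83 on the left and 8.91, 8.97, 8.70, 9.39 and 9.28 on the right. It was higher on the right in 6 of 9 rats, with a difference of 0.25 (SE 0.148, adjusted p = 0.369).

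Both lipolysis genes lay slightly below 0. Lipe, the hormone-sensitive lipase, read 5.50, 5.13, 5.28 and 5.50 in sham left and 5.15, 5.32, 5.39 and 4.71 in sham right muscle. Its SNX values were 5.32, 5.89, 5.38, 5.45 and 5.80 on the left and 5.38, 5.52, 5.48, 5.41 and 4.87 on the right. The lowest right values of Lipe, 4.71 and 4.87, again came from sham rat 17 and SNX rat 49. The averaged difference was -0.23 for Lipe (SE 0.118, adjusted p = 0.313) and -0.10 for Pnpla2, the adipose triglyceride lipase (adjusted p = 0.650). Without the 2 arrays the difference of Lipe was -0.10 (adjusted p = 0.665).

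Pdk4, the kinase that closes the pyruvate dehydrogenase complex to carbohydrate, read 12.84, 14.36, 14.44 and 14.61 in sham left and 13.51, 13.68, 13.75 and 14.66 in sham right muscle. In SNX rats Pdk4 read 13.83, 13.23, 13.54, 13.37 and 13.10 on the left and 13.81, 13.82, 13.25, 14.12 and 14.09 on the right. The right was higher in 5 of 9 rats, and the averaged difference was 0.12 (SE 0.233, adjusted p = 0.767), or -0.01 without rat 11 and -0.04 without the 2 arrays that stood apart.

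Ucp3, a mitochondrial carrier of muscle that moves with fatty acid supply, read 8.61, 8.84, 8.82 and 10.87 in sham left and 7.30, 7.06, 8.16 and 8.93 in sham right muscle. In SNX rats it read 8.51, 9.18, 8.66, 7.86 and 7.52 on the left and 8.96, 9.28, 8.97, 7.94 and 6.19 on the right. All 4 sham rats were lower on the right, whereas 4 of 5 SNX rats were higher and rat 49 was lower by 1.33. The difference was -1.42 in sham rats (SE 0.676, limma adjusted p = 0.412, and 0.166 with the block) and -0.08 in SNX rats (SE 0.605), the latter 0.44 without the 2 arrays that stood apart. The sham left value of rat 17 is far above the others, and without rat 17 the sham difference of Ucp3 was -1.25. The test of the difference between the kinds of rat gave 1.34 (SE 0.907, adjusted p = 0.9999). For Acot2, a mitochondrial thioesterase whose close paralogue Acot1 could share its probes, the averaged difference was 0.11 (adjusted p = 0.708).

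The direction of the β-oxidation genes differed between rats of the same group. The right muscle was lower for 17 of 17 of them in sham rats 13 and 15 and in SNX rats 12, 20 and 37, for 14 of 17 in sham rat 17 and for 15 of 17 in SNX rat 49. In sham rat 11 it was lower for 0 of 17, and in SNX rat 18 for 3 of 17. The median difference of these genes ran from -0.45 in SNX rat 12 to 0.30 in sham rat 11. Over all expressed genes the medians per rat lay between -0.08 and 0.02.

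The slow fibre markers also differed between the limbs of a rat. Their mean difference, right minus left, was 1.47 in sham rat 11 and 0.77 in SNX rat 18, the rats in which most members were higher on the right. It was -0.79 in sham rat 15, -0.94 in SNX rat 12 and -2.17 in SNX rat 20, where 35, 32 and 31 of 37 members were lower. In sham rat 17 and SNX rat 49, however, the markers differed by 1.29 and 0.55 while 23 and 27 of 37 members were lower, and their macrophage markers differed by 2.12 and 2.73. In the other rats, sham rat 13 and SNX rat 37, the slow fibre markers differed by -0.11 and 0.05, and 30 and 29 of 37 members were lower. Outside rats 17 and 49, the macrophage markers differed by -0.28 in SNX rat 20 and by 0.41 to 1.23 in the rest. The 1.23 was that of SNX rat 18, where 30 of 37 members were higher. The means of 12 markers of mitochondrial content differed by -0.19 to 0.08, and lay above 0 only in sham rat 11 (0.08) and SNX rat 18 (0.0003). For the difference averaged over both kinds of rat, 11 of these 12 markers lay below 0, with a median of -0.08. A lower right muscle was thus not particular to the members. The part of fibre type, macrophages and mitochondrial content in the differences of the members was not tested.

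**Figure D4:**
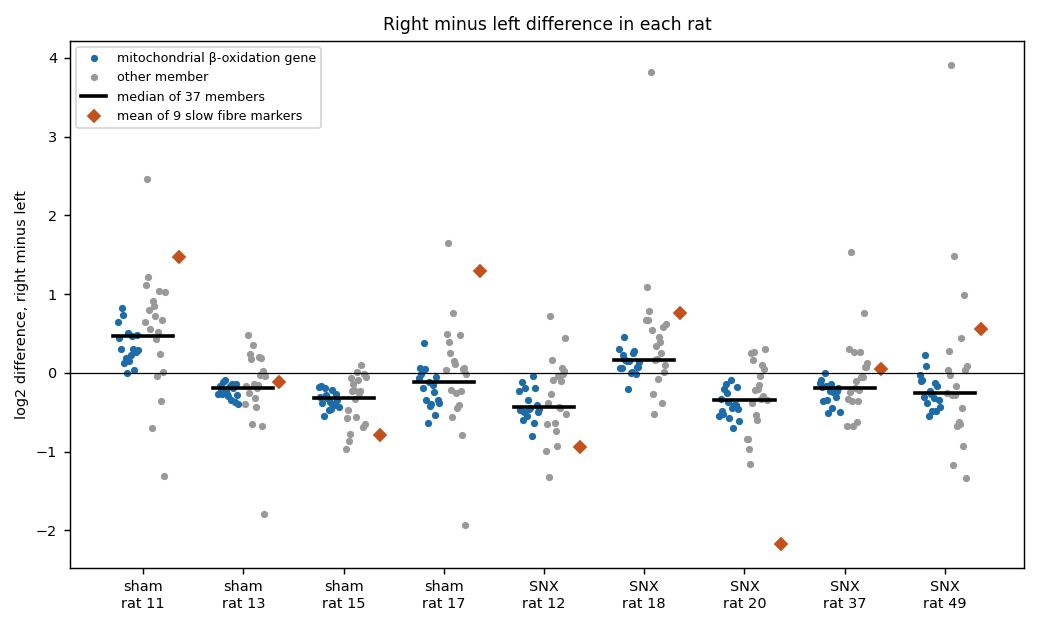
Log2 difference, right minus left, of each mitochondrial β-oxidation gene (blue) and other member (grey) in each of 9 rats, with the median of the 37 members (bar) and the mean of 9 slow fibre markers (diamond). The members lie mostly above 0 in sham rat 11 and SNX rat 18 and mostly below 0 in the other 7 rats.

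SNX rats had slightly higher values of most members than sham rats, most of all in the left muscle, but none passed. In the left limb 32 of 37 members and 17 of 17 mitochondrial β-oxidation genes lay above 0 (SNX minus sham), with a median of 0.21. Of the 8529 genes with a mean of at least 4, 50.5% lay above 0, and the median of all genes was 0.01. The limma test called 0 of 37, beside 0.00644% of probe sets, and 0 of 37 had an unadjusted p under 0.05, beside 6.25%. The blocked fit called 0 of 37 too, beside 0.00644%. In the right limb 23 of 37 lay above 0, with a median of 0.03, beside 47.1% of genes with a mean of at least 4. There 0 of 37 were called in either fit, beside 0% of probe sets, and at an unadjusted p under 0.05 only Ech1 was counted (2.70%, beside 9.25%).

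On the mean of both limbs of a rat, which counts each animal once, 31 of 37 members lay above 0, with a median of 0.13, beside 49.4% of genes with a mean of at least 4. The limma test called 0 of 37, beside 0% of probe sets. At an unadjusted p under 0.05 there were 2 members, Ech1 and Lipe (5.41%, beside 8.36%). No member had SNX and sham values without overlap in the left limb (beside 2.52% of probe sets), the right limb (8.25%) or the rat means (2.38%).

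Much of this direction came with sham rat 17, which had the lowest value of its group for 29 of 37 members in the left and for 29 of 37 in the right muscle. Without rat 17, the count below 0 went from 5 to 13 of 37 in the left limb and from 6 to 19 on rat means, where the median became -0.0016. In the right limb it went from 14 to 27 of 37, and the median from 0.03 to -0.09. The right limb count was also 7 without rat 11 or rat 13, 6 without rat 20, and 19 with a median of -0.0013 without rat 37. On rat means the count was 9 without rat 12 and 10 without rat 37.

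**Figure D5:**
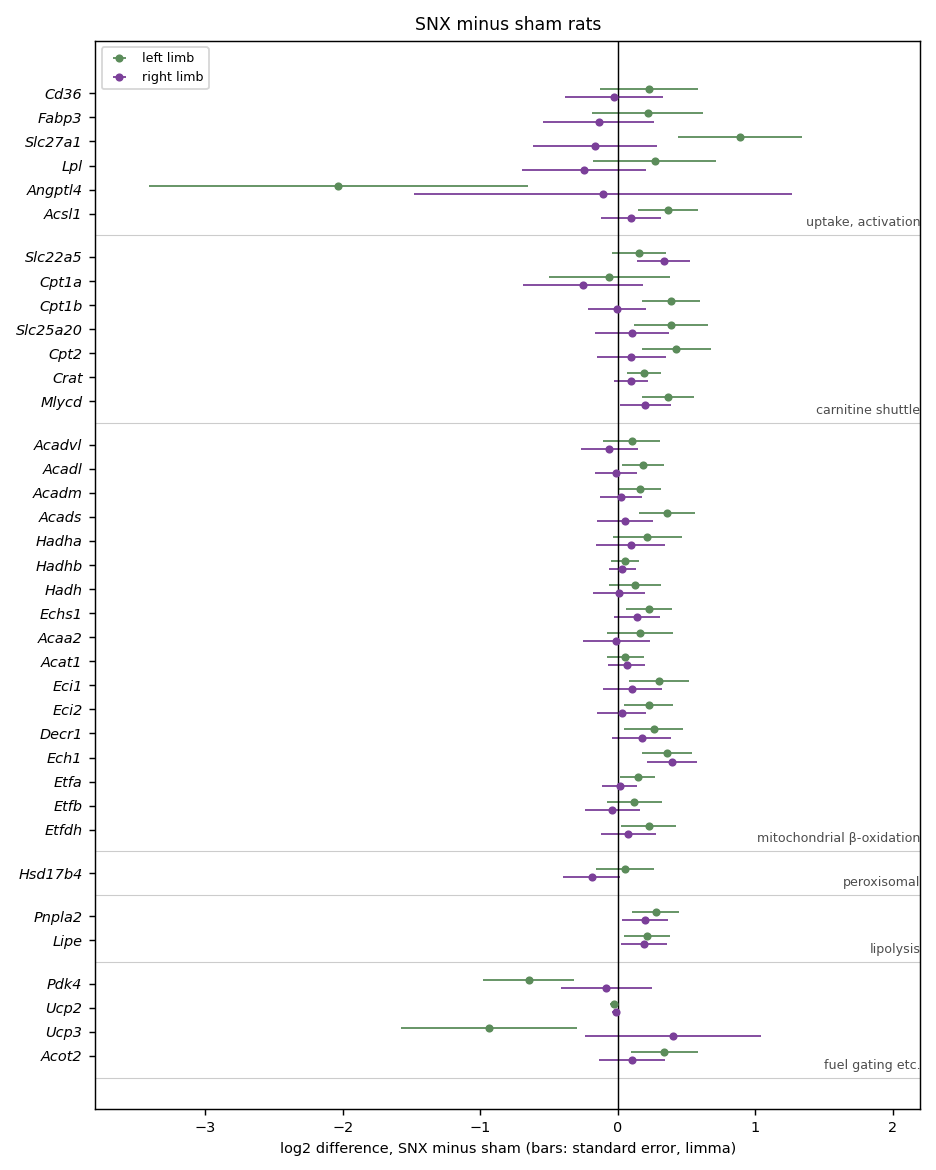
Log2 difference, SNX minus sham rats, for each fatty acid gene in the left and in the right soleus, with limma standard errors (n = 5 SNX and 4 sham rats). The 17 mitochondrial β-oxidation genes lie above 0 in the left limb and nearer to 0 in the right limb, and none of the differences passed the adjusted test.

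Ech1 was the member with the lowest p among the β-oxidation genes, at 11.8 in sham and 12.2 in SNX rats as means of both limbs. The difference was 0.37 (SE 0.161, limma adjusted p = 0.578), and 0.23 without rat 17. Lipe differed by 0.20 (SE 0.085, adjusted p = 0.578), Mlycd by 0.28 (SE 0.127, adjusted p = 0.578), Acsl1 by 0.23 (SE 0.175, adjusted p = 0.597) and Hsd17b4 by -0.07 (SE 0.144, adjusted p = 0.811). In the left limb Cpt1b differed by 0.39 (SE 0.211) and Slc27a1 by 0.89 (SE 0.451). Left values of Slc27a1 in SNX rats lay within 6.55 to 6.81, inside the sham range of 4.81 to 6.93.

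Of the 37 members, 5 lay below 0 in the left limb. Of the 4 in the step of fuel gating, uncoupling and thioester cleavage, Acot2 lay above 0 (0.34), and Pdk4, Ucp3 and the dim Ucp2 below. Pdk4 averaged 14.1 ± 0.82 (SD, n = 4) in sham left and 13.4 ± 0.28 (SD, n = 5) in SNX left muscle, a difference of -0.65 (SE 0.330, limma adjusted p = 0.837). Sham rats 13, 15 and 17 lay above all SNX rats and sham rat 11 below them, and without rat 11 the difference was -1.05 (adjusted p = 0.256). Ucp3 differed by -0.94 (SE 0.641, adjusted p = 0.870), and by -0.41 without rat 17. Angptl4, of the uptake step, differed by -2.03 (SE 1.38, adjusted p = 0.870), with 3 of 5 SNX left values and 1 of 4 sham left values below 3. In the right limb the differences were -0.08 for Pdk4, 0.40 for Ucp3 and -0.11 for Angptl4.

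Adipocyte and macrophage markers had lower means in SNX muscle without passing the test, and adipocytes express Lpl, Cd36, Pnpla2 and Lipe. In the left limb these members had higher means in SNX rats, by 0.27, 0.23, 0.27 and 0.21. In the right limb Lpl and Cd36 had lower and Pnpla2 and Lipe higher means in SNX rats. The mean of 7 adipocyte markers lay between 7.46 and 9.24 in sham left and between 6.52 and 7.43 in SNX left muscle, without overlap. In the right limb it lay between 7.22 and 8.95 in sham and between 6.62 and 7.63 in SNX rats. The mean of 14 macrophage markers lay between 6.16 and 6.91 in sham left and between 5.43 and 6.04 in SNX left muscle. In the right limb the macrophage means overlapped, at 6.58 to 9.01 in sham and 5.76 to 8.33 in SNX rats. Of the defining markers, Adipoq averaged 7.87 in sham left and 5.28 in SNX left muscle (limma adjusted p = 0.675), and Lep lay at 2.24 over all arrays, below the array medians. Slow fibre marker means ran from 11.8 to 14.6 in sham left and from 13.0 to 14.8 in SNX left muscle. The part of these cells in the differences of the members was not tested.

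The difference between the responses of SNX and sham rats to ligation was tested directly. For 30 of 37 members the right minus left difference was lower in SNX than in sham rats, with a median of -0.16, beside 51.5% of genes with a mean of at least 4. The limma test called 0 of 37, as did the blocked fit, beside 0% of probe sets in both, and 0 of 37 had an unadjusted p under 0.05, beside 1.41%. The lowest p was that of Slc27a1 (-1.05, SE 0.638, adjusted p = 0.9999). Without sham rat 11, 17 of 37 lay below 0 and the median was 0.01, so the direction rested on that rat. For the β-oxidation genes the values lay between -0.31 and 0.04.

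Of 19 regulators of the pathway, Prkaa2 fell in right muscle. Prkaa2 codes for the catalytic subunit of AMP-activated protein kinase that prevails in muscle, and its averaged difference was -0.46 (SE 0.101, limma adjusted p = 0.0313, and 0.00875 with the block). Without the block, the adjusted p of Prkaa2 was above 0.05 without rat 11, 13, 17, 18, 37 or 49, at most 0.110, and it passed in 13 of 13 alternatives with the block. This is 1 of 19, beside 2.55% of probe sets. In the blocked fit 2 regulators were higher and 4 lower, beside 9.05% of probe sets and 12.3% of genes called in either direction. The lipin gene Lpin1 was higher by 0.46 (adjusted p = 0.0254 with the block) and the other catalytic subunit of the kinase, Prkaa1, by 0.49 (0.0456). The receptor partner Rxrb was lower by 0.16 (-0.16, 0.0265), the factor Klf15 by 0.73 (-0.73, 0.0311) and the mitochondrial transcription factor Tfam by 0.13 (-0.13, 0.0491). With the block, Lpin1 and Rxrb each passed in 8 of 13 alternatives, and Lpin1 lost its call without rat 11, 12, 13, 15 or 37 and Rxrb without rat 12, 15, 18 or 49. Prkaa1, Klf15 and Tfam were named after their values were seen, to complete the count. Ppargc1a was not called (0.56, SE 0.291, adjusted p = 0.311), nor were the receptors Ppard (0.08, adjusted p = 0.501) and Pparg (0.17, adjusted p = 0.645). Ppara lay at 2.16, below the array medians, and no direction was read from it.

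Of 28 other measured oxidation and transport genes (30 listed), 1 rose and 1 fell in right muscle, beside 2.55% of probe sets called. Gpihbp1, which anchors lipoprotein lipase on capillary endothelium, rose by 1.07 (SE 0.263, limma adjusted p = 0.0444), and the lipoprotein receptor Vldlr fell by 0.17 (-0.17, SE 0.040, adjusted p = 0.0390). Without the block, Gpihbp1 lost its call without any 1 of the rats other than rat 49 and Vldlr without any 1 other than rat 12, with adjusted p up to 0.145 and 0.127. Over 18 alternatives to the fit without the block, the block itself among them, Gpihbp1 passed in 9 and Vldlr in 5. With the block, both passed in 13 of 13 alternatives. With the block the synthetase Acsl5, named after its value was seen, was also higher (0.80, adjusted p = 0.0285) and the dehydrogenase Hsd17b10 lower (-0.29, adjusted p = 0.0125), beside 12.3% of genes called in that fit. Of 7 endothelial markers, 5 lay above 0, and 2 passed as higher without the block. With the block, 3 passed as higher and 1 as lower. The part of the endothelium in the Gpihbp1 value was not tested.

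Of 23 genes of lipid storage and synthesis, 0 passed without the block, and at a threshold of 0.05 with the block 3 were higher on the right, a share near that of all genes called in that fit (12.3%). They were the droplet coat gene Plin2 (0.67, SE 0.176, limma adjusted p = 0.0293), the lipase cofactor Abhd5 (0.23, SE 0.059, 0.0275) and Hilpda, a droplet gene known to respond to hypoxia (0.99, SE 0.254, 0.0266). Their adjusted p without the block lay between 0.0716 and 0.104. With the block, Plin2 passed in 7, Abhd5 in 6 and Hilpda in 8 of 13 alternatives, and for each of them leaving out rat 18 or 49 ended the call. The call was also lost for Plin2 without rat 11, 17 or 37, for Abhd5 without rat 11, 13, 15 or 37, and for Hilpda without rat 12 or 15. Within 1 kind of rat, the blocked fit called Prkaa2 in sham rats (-0.61, adjusted p = 0.0361) and Vldlr in SNX rats (-0.26, adjusted p = 0.0339) among the 3 lists, but the call held in only 5 of 13 alternatives for Prkaa2 and in 3 of 13 for Vldlr. In the comparisons of SNX with sham rats and of their responses, 0 genes of the 3 lists passed limma in either fit that was run.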

How the data were processed

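RNA of 18 soleus muscles was measured on Affymetrix rat arrays, from 2 µg of total RNA per muscle per the labels' protocols. The deposited values are on the log2 scale, 1 per probe set and array. The submitters' processing notes name RMA, GCRMA and Partek, but no source used here says which of them gave these values. Of 31099 probe sets, 57 controls were left out and 31042 tested. By the platform annotation 20826 probe sets list 1 gene (20758 brought to current RefSeq symbols), 436 several and 9780 none.

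Group means were fitted in R 4.3.3 with limma 3.58.1 (lmFit and eBayes), two-sided, with Benjamini-Hochberg adjustment over all probe sets and a threshold of 0.05, in 7 comparisons (residual df 14, prior df 1.02). The prior df is low, so the test borrows little strength across probe sets. The limbs of a rat pair the arrays: their deviations from the group means correlated above 0.1 in 7 of 9 rats, and a second fit used duplicateCorrelation with the rat as a block (consensus 0.297). Each array is a different muscle, and the replicates of a group are different rats.

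The members and lists were chosen with earlier results of these data known. Values on every array are given for members past the threshold, for the member with the lowest p in each step (right against left and SNX against sham), and for Cd36, Cpt1a, Cpt1b, Pdk4, Ucp2, Ucp3, Lpl and Angptl4. The rule set for each list was to name at most 3 genes per comparison, by lowest p among those past the threshold, beside Ppara, Ppard, Pparg and Ppargc1a. Prkaa1, Klf15, Tfam and Acsl5 are outside this rule and were named after their values were seen. Scripts were tested on simulated data. Alternatives were the block, the rat as a fixed term, fits of the compared groups only, 2 other scalings, a filter on dim probe sets (mean of at least 4), another prior, array weights, the mean of a gene's probe sets, and leaving out rats or arrays.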

Additional observations from a re-analysis of the deposited data

Results flagged for a closer look

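For the 16 members given on every array, 64 groups of 4 or 5 arrays were screened for a lowest or highest value far from the rest, and 5 were found, where chance alone gives about 1 in 20 groups. In sham left muscle, Slc22a5 was lowest in rat 13 at 8.08, while the other 3 rats lay between 8.36 and 8.39. Pdk4 was lowest in sham left muscle of rat 11 at 12.8, and Ucp3 was highest in sham left muscle of rat 17 at 10.9. Ech1 was lowest in sham right muscle of rat 17 at 11.1. Lipe was lowest in SNX right muscle of rat 49 at 4.87. The last pair comes from the arrays that stood apart from the rest.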

How the results depend on the processing

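For right minus left averaged over sham and SNX rats, the count of members past the threshold was 0 in limma without the block, 2 with the replicate block, and 1 each with the rat as a fixed term (Echs1), with only probe sets of a mean of at least 4, and with array weights. With the replicate block the count was 3 with only probe sets of a mean of at least 4, 2 with each array centred on its median, 0 under another quantile normalization, 0 without the 2 arrays that stood apart (right muscle of sham rat 17 and of SNX rat 49), and 0 to 2 when 1 rat was left out (0 without rat 13, 17 or 37). Alternatives on top of the block were chosen after seeing the data. The block changed no other count of members. In the other 6 comparisons 0 members passed under any alternative run. Over all probe sets the averaged comparison called 791, 2808 with the block, 1822 with the filter on dim probe sets, 1361 with array weights, and 153 to 1007 when 1 rat was left out, so the numbers of members called have a wide error. For sham rats alone the count was 46, 559 with the block, 347 with array weights and 0 to 284 with 1 rat left out, and for SNX rats alone 14, 99 with the block and 0 to 8 with 1 rat left out. SNX against sham in the left limb called 2, 60 with array weights and 0 to 12 with 1 rat left out. No called value turned its direction under any alternative. The number of rats, 4 or 5 per group, limits the precision, and arrays carry no read depth.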

Other observations

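Of the 37 members, 26 had 1 probe set and 11 had several, 51 probe sets in all. The probe sets of Ucp3 both gave a lower right limb (-0.75 and -0.57), but on rat means the SNX minus sham difference was -0.27 for one and 0.32 for the other. For Pdk4 the second probe set also gave a lower value in SNX left muscle (-0.94, beside -0.65). For Lipe the rat mean difference of 0.20 was -0.07 on the dimmer probe set. The probe sets of Acot2 all lay above 0 for right minus left, at 0.08 to 0.11, and for SNX minus sham in the left limb, at 0.29 to 0.34.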
